A study of Mus musculus with 8 samples.

Results

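Transcripts of 10 genes of the Polycomb repressive complexes were followed in mouse embryonic stem cells that lacked the histone demethylase Jmjd1a, the related demethylase Jmjd1b, or both. The genes were Ezh2, Eed, Suz12, Jarid2, Mtf2, Phf19, Rnf2, Cbx7, Pcgf6 and Rybp. On the array 31 probe sets carried the symbol of a single one of them, and a probe set was taken when its values spanned at least 0.01 on the log2 scale over the 8 arrays. This left 18 probe sets of 6 genes (6 of Suz12, 4 of Mtf2, 3 of Jarid2, 2 each of Rnf2 and Pcgf6, and 1 of Eed), out of 10405 probe sets with 1 gene symbol that met the same minimum and 45101 in all. The smallest span inside the minimum was that of Eed, 0.271, and the largest outside it was 8.3e-08. The other 13 probe sets were flat and hold no difference to compare: the single one of Ezh2 (11.01 on every array), both of Phf19 (7.23 and 7.27), all 3 of Cbx7 (6.39, 6.88 and 9.33), 2 of Mtf2, 3 of Rnf2 and 1 each of Eed and Pcgf6. Both probe sets that list Rybp also list a second symbol and were not used. Because the minimum keeps what varied, the counts below describe the 18 probe sets and not all 10 genes.

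Polycomb proteins keep developmental genes silent by marking histones. Polycomb repressive complex 2 (PRC2) methylates lysine 27 of histone H3 through its catalytic subunit Ezh2, which works only together with the scaffold Suz12 and with Eed, the subunit that binds the finished mark. Jarid2, Mtf2 and Phf19 are accessory subunits that help PRC2 find chromatin, Mtf2 and Phf19 through CpG-rich DNA. Complex 1 (PRC1) ubiquitinates histone H2A through Rnf2. Cbx7, which binds the methylated lysine, defines its canonical form in embryonic stem cells, and Rybp and Pcgf6 belong to variant forms. In embryonic stem cells these complexes sit at many promoters of lineage regulators.

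The 8 arrays held 2 biological replicates of each of 4 groups, and p-values measure the spread between these samples only. WT cells were Jmjd1a+/+; Jmjd1b+/+, Jmjd1a-KO cells were Jmjd1a delta/delta; Jmjd1b+/+, Jmjd1b-KO cells were Jmjd1a+/+; Jmjd1b delta/delta, and double-KO cells lacked both genes. Jmjd1a and Jmjd1b are the genes now named Kdm3a and Kdm3b, and their products remove methyl groups from lysine 9 of histone H3. All groups grew with the cytokine LIF, and the protocol given for every sample names OHT at 800 nM, the compound that deletes the conditional Jmjd1b allele through the inducible recombinase MerCreMer. The double-KO cells descended from a Jmjd1a-deficient line, mice are named as the source of the WT and the Jmjd1b-KO cells, and the sources used here do not tell which clone gave which replicate. Genotype and cell line therefore cannot be told apart in any comparison with WT, in Jmjd1a-KO or double-KO against Jmjd1b-KO, or in the interaction.

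The arrays had medians of 6.80 to 6.81 and lower quartiles of 6.34 to 6.35 on the log2 scale. Kdm3a stood at 12.78 in WT and 12.81 in Jmjd1b-KO against 4.98 in Jmjd1a-KO and 4.68 in double-KO, and Kdm3b stood at 9.93 and 9.88 in WT and Jmjd1a-KO. Kdm3b read 7.07 and 7.10 on the Jmjd1b-KO arrays but 7.06 and 7.66 on the double-KO arrays, so that double-KO replicate 2 stood apart at the deleted gene. The 10 calls of member probe sets in double-KO against WT, given below, all passed without that array. All 8 listed stem cell markers varied, with a summed linear level of 26520 to 27050 in WT, 37300 to 38980 in Jmjd1a-KO, 28780 to 29450 in Jmjd1b-KO and 33430 to 45630 in double-KO. Over the 8 arrays Pou5f1 lay between 12.07 and 12.67, Nanog between 10.43 and 12.09, Zfp42 between 11.40 and 13.44, and Esrrb, on the brightest of its 3 probe sets, between 7.68 and 11.19. The mean log2 level of the list was 10.48 to 10.50 in WT and 10.18 to 10.94 in double-KO. On double-KO replicate 1 Esrrb (7.68 against 9.70 and 9.78), Klf4, Utf1 (10.04 against 10.94 and 11.13) and Pou5f1 read lower than in WT. Nanog, Zfp42, Sox2 and Tdgf1 read higher there. Replicates were less alike in Jmjd1a-KO and double-KO, with an SD of the replicate difference of 0.33 and 0.28 over the 10405 probe sets, than in WT and Jmjd1b-KO (0.16 and 0.12). Markers of fibroblasts, which often serve as feeder cells, differed between the groups in sum, and 9 of 13 varied. Their summed linear level was 13960 to 14620 in WT, 6497 to 8221 in Jmjd1a-KO, 3175 to 3335 in Jmjd1b-KO and 7565 to 9188 in double-KO. Single markers did not all follow the sum. By group means Thy1 was higher in Jmjd1b-KO than in WT (7.66 against 7.10). Fn1, on its brighter probe set, was alike in Jmjd1a-KO and WT (12.00 in both). Col3a1, on its brighter probe set, was higher in double-KO than in WT (8.37 against 8.20). In each of these comparisons the other varying markers had lower means than WT. The part of either marker list in the results below was not tested. In bulk RNA, fewer cells of a type and less RNA per cell cannot be told apart.

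The promoters of the 5 genes that changed are shown because their transcripts fell into different patterns over the genotypes. The windows run 250 bases upstream to 50 bases downstream of the transcript start in RefSeq, build GRCm38.p6, which listed 9 of the 10 genes. For Jarid2 and Mtf2, with 2 starts each, the upstream one is given. Capitals mark matches, on either strand, to the GC box GGGCGG and the CCAAT box CCAAT.
Suz12, chr11:79992856-79993155, plus strand: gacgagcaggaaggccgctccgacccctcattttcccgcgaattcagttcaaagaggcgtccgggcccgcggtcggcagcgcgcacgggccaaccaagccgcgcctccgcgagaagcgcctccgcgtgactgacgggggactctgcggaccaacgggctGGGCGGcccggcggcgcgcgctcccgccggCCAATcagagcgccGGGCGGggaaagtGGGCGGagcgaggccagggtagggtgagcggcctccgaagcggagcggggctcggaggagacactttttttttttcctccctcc
Rnf2, chr1:151500942-151501241, minus strand: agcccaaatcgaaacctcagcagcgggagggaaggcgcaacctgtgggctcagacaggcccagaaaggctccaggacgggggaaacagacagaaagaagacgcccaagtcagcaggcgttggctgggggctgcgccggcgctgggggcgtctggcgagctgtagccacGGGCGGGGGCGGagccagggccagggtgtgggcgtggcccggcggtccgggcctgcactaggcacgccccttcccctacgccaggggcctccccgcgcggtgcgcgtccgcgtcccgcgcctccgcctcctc
Jarid2, chr13:44730524-44730823, plus strand: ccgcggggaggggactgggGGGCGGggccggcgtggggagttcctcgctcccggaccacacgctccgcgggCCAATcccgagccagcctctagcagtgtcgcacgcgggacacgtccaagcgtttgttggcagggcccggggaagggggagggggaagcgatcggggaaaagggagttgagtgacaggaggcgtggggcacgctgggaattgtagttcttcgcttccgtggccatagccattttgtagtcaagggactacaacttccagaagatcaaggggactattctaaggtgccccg
Mtf2, chr5:108065424-108065723, plus strand: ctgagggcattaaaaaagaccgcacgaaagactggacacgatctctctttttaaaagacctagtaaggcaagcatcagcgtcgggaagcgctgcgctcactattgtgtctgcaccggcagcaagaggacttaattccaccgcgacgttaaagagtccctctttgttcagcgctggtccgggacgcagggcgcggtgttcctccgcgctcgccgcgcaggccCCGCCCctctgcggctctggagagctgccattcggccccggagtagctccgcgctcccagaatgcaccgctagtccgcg
Pcgf6, chr19:47050857-47051156, minus strand: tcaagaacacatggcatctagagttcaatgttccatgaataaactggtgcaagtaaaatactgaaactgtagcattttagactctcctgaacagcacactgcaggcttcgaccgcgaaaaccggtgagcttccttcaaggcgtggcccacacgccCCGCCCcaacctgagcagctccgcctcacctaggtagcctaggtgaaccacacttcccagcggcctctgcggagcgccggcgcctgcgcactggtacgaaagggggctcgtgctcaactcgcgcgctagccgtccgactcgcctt
The Suz12 window held 41 CG dinucleotides, Rnf2 and Mtf2 30 each, Jarid2 24 and Pcgf6 22, against a median of 7 over 32851 windows of the same length. All 5 held the GC box, 3 matches in Suz12, 2 in Rnf2 and 1 in each of the others, and 35.7% of all windows held at least 1. The CCAAT box was in Suz12 and Jarid2 and in 37.4% of all windows. The E-box CACGTG is in 7.15% of windows and the TATA box letters TATAAA are in 13.6%. The E2F letters GGCGGGAA are in 2.19%, and the ETS letters CCGGAAG in 8.86%. None of these 4 was in the 5 windows on either strand. These are matches of letters and do not show that a factor binds there.

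Suz12, the scaffold of PRC2, was the member with the widest range of group means. By group means its transcript was lowest in WT, intermediate in both single knockouts and highest in double-KO. On probe set 1420021_s_at the arrays read 11.67 and 11.52 in WT, 12.51 and 12.15 in Jmjd1a-KO, 12.29 and 12.15 in Jmjd1b-KO, and 12.78 and 12.98 in double-KO. The WT arrays lay below all others and the double-KO arrays above all others, while the single knockouts overlapped. All 6 probe sets rose in double-KO against WT, by 0.63 to 1.43 on the log2 scale. The rise was 1.29 ± 0.14 (SE; adjusted p = 0.00133) on 1420021_s_at and 1.43 ± 0.27 (adjusted p = 0.00825) on 1452364_at, or 2.44-fold and 2.69-fold. In the fit of all probe sets, flat ones included, 2 of these 6 rises passed. Without WT replicate 2 the adjusted p was 0.0505 for 1427253_s_at, 0.0513 for 1449661_at and 0.0519 for 1452364_at, and the other 3 passed without each array in turn.

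By group means the single knockouts moved Suz12 by less. Between double-KO and Jmjd1a-KO, all probe sets but 1420021_s_at had differences of 0.02 to 0.49 with no call. The arrays of these groups overlapped on 1420022_s_at, 1449661_at and 1452364_at. In Jmjd1a-KO against WT 3 of the 6 probe sets rose, 1420021_s_at by 0.74 ± 0.14 (adjusted p = 0.0236), 1420022_s_at by 0.62 ± 0.09 (adjusted p = 0.0114) and 1449661_at by 0.52 ± 0.14 (adjusted p = 0.0488), and the rest had values of 0.28 to 0.94. In Jmjd1b-KO against WT 1 of 6 rose, 1420021_s_at by 0.63 ± 0.14 (adjusted p = 0.0307), with 0.20 to 0.61 on the other 5. None of these 4 rises passed with flat probe sets included, nor when WT replicate 1 or WT replicate 2 was left out. Against Jmjd1a-KO, the double-KO arrays were higher on 1420021_s_at, by 0.55 ± 0.14 (adjusted p = 0.036), a call that passed in 1 of the 8 fits that left out an array. Against Jmjd1b-KO 4 of 6 probe sets rose, by 0.41 to 0.82. None of these 4 calls held in every one of those 8 fits, and that of 1452364_at held in the fewest. The differences stayed between 0.34 and 1.03. The interaction, the double-KO value minus that expected from adding both single losses, lay between -0.19 and 0.14 with adjusted p from 0.299 to 0.849, and its SE of 0.12 to 0.39 is what limits a departure that these arrays could show. The probe sets whose names end in _s_at can also take up related transcripts.

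Eed, the reader subunit of PRC2, had no call in any comparison. Its values were 11.67 and 11.66 in WT, 11.73 and 11.70 in Jmjd1a-KO, 11.72 and 11.63 in Jmjd1b-KO, and 11.45 and 11.62 in double-KO. The double-KO arrays were the lowest, with replicates 0.17 apart, and the difference from WT was -0.12 ± 0.07 (adjusted p = 0.221). For Ezh2, the catalytic subunit, the table gives no difference to test.

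**Figure D1:**
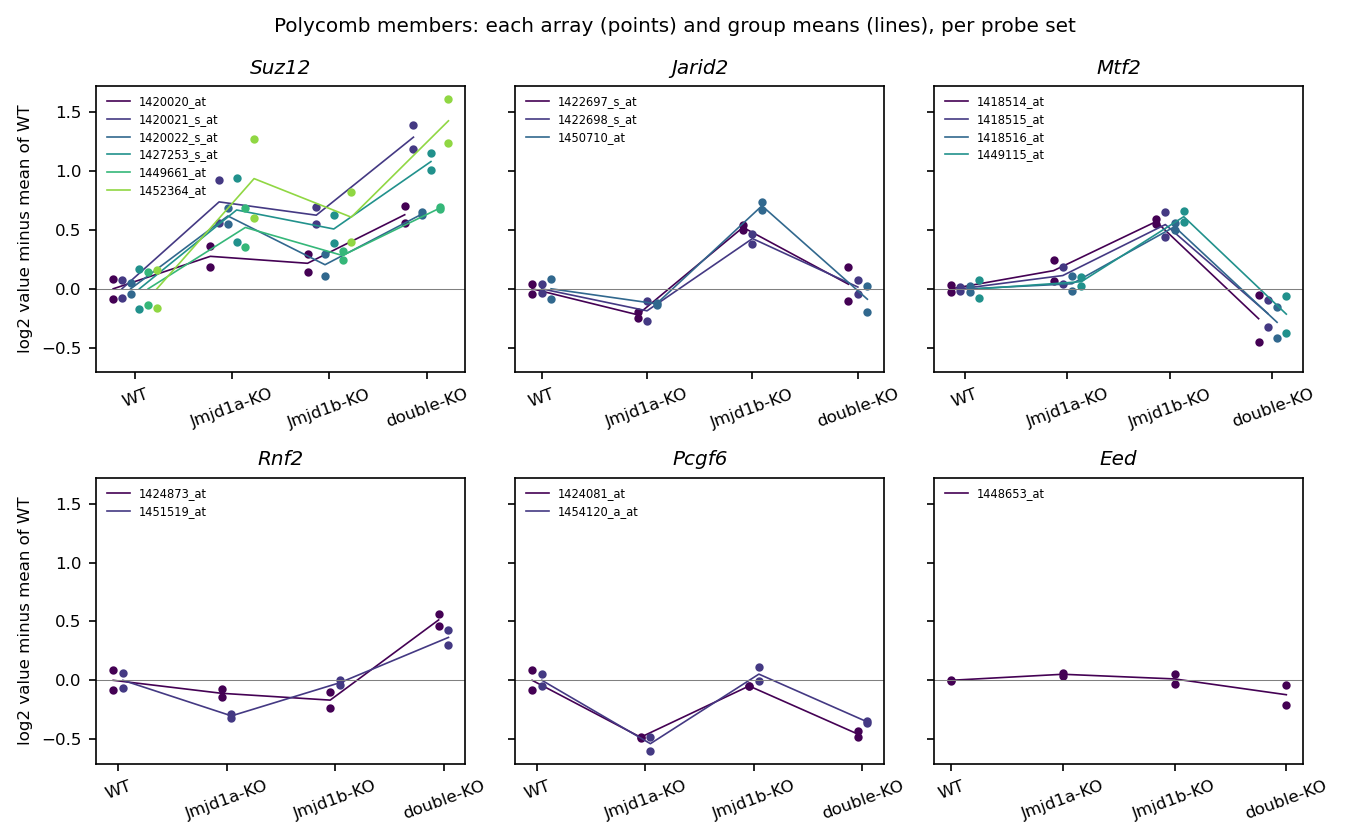
Each panel plots one gene, with the log2 value of every array minus the WT mean of its probe set (points, 2 per group) and the group means joined by a line per probe set, over the 4 genotypes. Suz12 was highest in double-KO, Jarid2 and Mtf2 in Jmjd1b-KO and Rnf2 in double-KO, and Pcgf6 was lower in both groups without Jmjd1a.

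The accessory subunits Jarid2 and Mtf2 took another course and peaked in Jmjd1b-KO. Jarid2, a cofactor that recruits PRC2 and has no demethylase activity of its own, read 10.49 and 10.32 in WT, 10.27 and 10.28 in Jmjd1a-KO, 11.15 and 11.07 in Jmjd1b-KO, and 10.21 and 10.42 in double-KO on 1450710_at. The Jmjd1b-KO arrays stood clear of the other 6, which overlapped except that both Jmjd1a-KO arrays lay below WT. All 3 Jarid2 probe sets rose in Jmjd1b-KO against WT, by 0.43 to 0.71, with 0.71 ± 0.10 (adjusted p = 0.00905) on 1450710_at. In double-KO all 3 were lower than in Jmjd1b-KO, by -0.79 to -0.41, and differed from WT by -0.09 to 0.04 with no call. In Jmjd1a-KO they differed from WT by -0.22 to -0.13, also with no call.

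Mtf2, a Polycomb-like protein that binds CpG-rich DNA, read 11.55 and 11.50 in WT, 11.63 and 11.50 in Jmjd1a-KO, 12.08 and 12.02 in Jmjd1b-KO, and 11.11 and 11.37 in double-KO on 1418516_at. The Jmjd1b-KO arrays were the highest and the double-KO arrays the lowest, without overlap between the 2 groups or with WT. All 4 varying probe sets of Mtf2 rose in Jmjd1b-KO against WT, by 0.53 to 0.61, with 0.53 ± 0.10 (adjusted p = 0.0198) on 1418516_at. In double-KO all 4 were lower than in Jmjd1b-KO, by -0.83 to -0.76. Against WT they had -0.28 to -0.21 with no call, the lowest adjusted p being 0.0599, and against Jmjd1a-KO -0.41 to -0.28 with no call.

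The difference between cells with and without Jmjd1b thus depended on the Jmjd1a group for Mtf2 and for 1450710_at of Jarid2. Genotype and cell line cannot be told apart here. The interaction was -0.98 to -0.86 on the 4 Mtf2 probe sets (adjusted p from 0.0116 to 0.0185) and -0.67 ± 0.14 on 1450710_at of Jarid2 (adjusted p = 0.0202), while the other 2 Jarid2 probe sets had -0.26 and -0.22 with no call. None of these 5 interactions passed without Jmjd1b-KO replicate 1 or without WT replicate 2, or with flat probe sets included, and they stayed between -1.18 and -0.56 in the fits without an array. The rises of both genes in Jmjd1b-KO passed in neither the fit with flat probe sets nor any fit that left out a WT or a Jmjd1b-KO array, where the adjusted p reached 0.154 and the differences stayed between 0.38 and 0.79. The falls from Jmjd1b-KO to double-KO were firmer: all 4 of Mtf2 and that of 1450710_at passed without each array in turn, while the other 2 of Jarid2 did not pass without Jmjd1b-KO replicate 2, and 3 of Mtf2 and 1 of Jarid2 passed with flat probe sets included. The fibroblast marker sum was lowest in Jmjd1b-KO, the group in which both transcripts were highest, although Thy1 of that list was highest there. The part of this sum was not tested.

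Rnf2, the ubiquitin ligase of PRC1, was highest in double-KO. On 1451519_at the arrays read 9.84 and 9.97 in WT, 9.59 and 9.62 in Jmjd1a-KO, 9.90 and 9.87 in Jmjd1b-KO, and 10.21 and 10.33 in double-KO. Both double-KO arrays lay above the other 6, and both Jmjd1a-KO arrays below them. Against WT the rise in double-KO was 0.36 ± 0.07 (adjusted p = 0.00914) on this probe set and 0.51 ± 0.09 (adjusted p = 0.00515) on 1424873_at. Without WT replicate 1 the former did not pass (adjusted p = 0.0568). Against Jmjd1a-KO it was 0.67 ± 0.07 (adjusted p = 0.00294) and 0.62 ± 0.09 (adjusted p = 0.00559), and against Jmjd1b-KO 0.38 and 0.68, of which the 0.38 did not pass without Jmjd1b-KO replicate 2 (adjusted p = 0.0502). In Jmjd1a-KO against WT 1451519_at fell by 0.30 ± 0.07 (adjusted p = 0.0387), which did not pass when any array of WT, Jmjd1b-KO or Jmjd1a-KO replicate 1 was left out, and 1424873_at had -0.11 with no call. In Jmjd1b-KO against WT both probe sets had no call, with -0.17 and -0.02. The interaction was 0.79 ± 0.12 on 1424873_at (adjusted p = 0.00949) and 0.69 ± 0.10 on 1451519_at (adjusted p = 0.00879), and both passed without each array in turn. With flat probe sets included, the rises of both probe sets in double-KO passed against all 3 other groups, and the interaction passed on 1451519_at.

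Pcgf6, a subunit of a variant PRC1 that silences germline genes in embryonic stem cells, followed the Jmjd1a genotype. On 1424081_at the arrays read 10.56 and 10.39 in WT, 9.98 and 9.99 in Jmjd1a-KO, 10.43 and 10.42 in Jmjd1b-KO, and 9.99 and 10.04 in double-KO. All 4 arrays without Jmjd1a lay below all 4 arrays with it. Against WT the Jmjd1a-KO arrays were lower on this probe set, with -0.48 ± 0.07 (adjusted p = 0.0122), as were the double-KO arrays, with -0.46 ± 0.07 (adjusted p = 0.0038). On 1454120_a_at the differences were -0.54 ± 0.08 (adjusted p = 0.0114) and -0.35 ± 0.08 (adjusted p = 0.0119). In Jmjd1b-KO the differences from WT were -0.05 and 0.05 with no call, and between double-KO and Jmjd1a-KO they were 0.03 and 0.18 with no call. The interaction was 0.08 ± 0.10 and 0.13 ± 0.11 with no call. Both falls in Jmjd1a-KO were lost without WT replicate 1 (adjusted p = 0.0637 on 1424081_at and at most 0.0702 on 1454120_a_at), and the latter also without WT replicate 2. The fall of 1454120_a_at in double-KO was lost without WT replicate 1 (adjusted p = 0.0719). With flat probe sets included neither fall in Jmjd1a-KO passed, and in double-KO that of 1424081_at did.

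**Figure D2:**
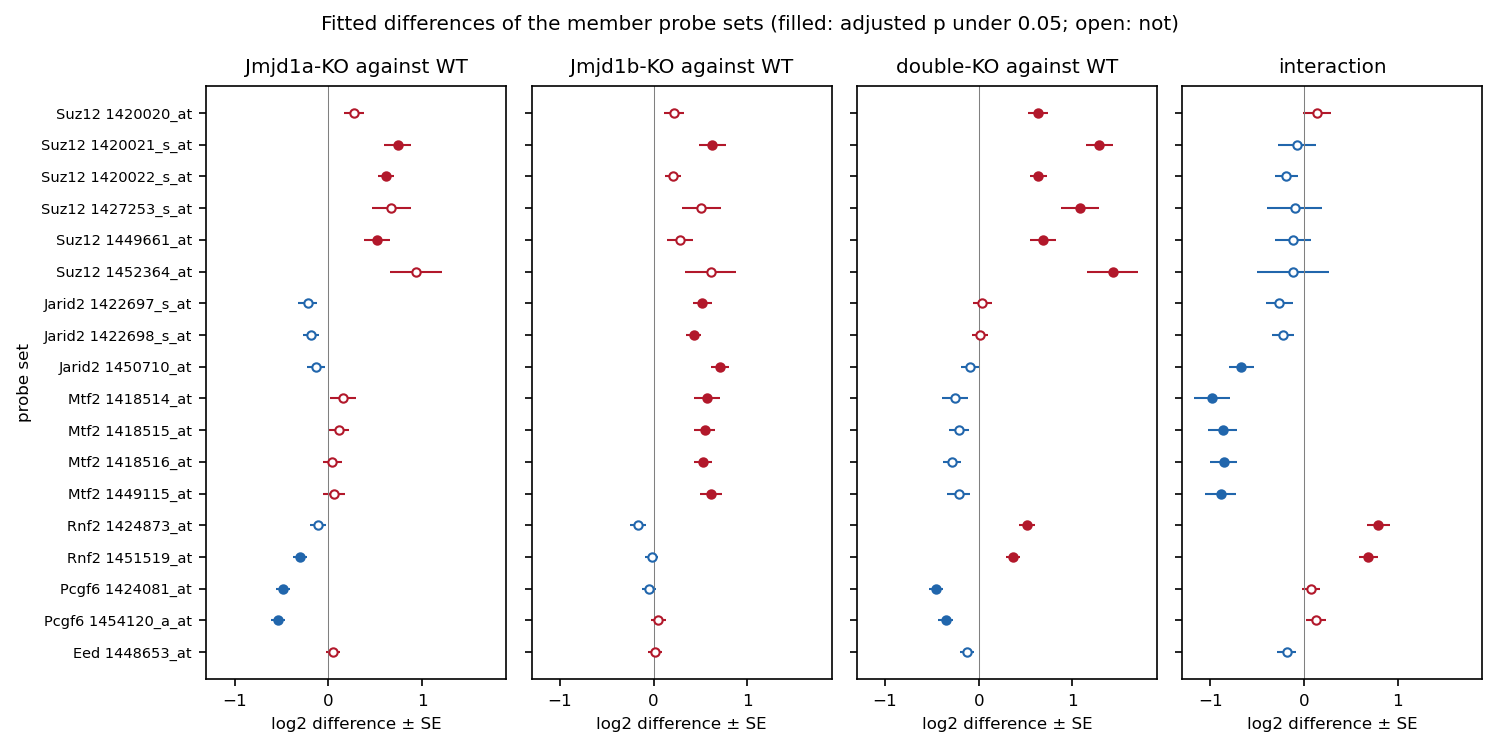
Points give the fitted log2 difference of each of the 18 probe sets, with its SE as a bar, for each knockout group against WT and for the interaction. Filled points passed an adjusted p of 0.05. All 6 Suz12 points are filled in double-KO against WT, all 7 of Jarid2 and Mtf2 in Jmjd1b-KO against WT, and the interaction points of Mtf2 and Rnf2 lie on opposite sides of 0.

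The number of member probe sets past the threshold was read against the whole array. In Jmjd1a-KO against WT 6 of 18 passed, 3 higher and 3 lower, where 18.4% of all fitted probe sets passed, 10.4% higher and 8.05% lower. In Jmjd1b-KO against WT 8 passed, all higher, against 24% of all, 12.7% higher and 11.3% lower. At an unadjusted p under 0.05 in limma 9 were higher and 0 lower. This excess depended on the fit. With only the groups compared 9 passed, against 45.1% of all, and with array weights 11, against 49.1%. In double-KO against WT 10 passed, 8 higher and 2 lower, against 47.6% of all, 27.8% higher and 19.9% lower, so that this share is near the background. The probe sets of a gene are not independent, and those of Suz12 make up 6 of the 10.

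Between the knockouts, 3 of 18 were higher and 0 lower in double-KO against Jmjd1a-KO (29.2% of all passed, 17.4% higher and 11.8% lower). At an unadjusted p under 0.05 in limma, 5 were higher and 3, all of Mtf2, lower. Against Jmjd1b-KO 15 of 18 passed, 6 higher and 9 lower (51.2% of all, 28.7% higher and 22.5% lower). In Jmjd1a-KO against Jmjd1b-KO 10 passed, 1 higher and 9 lower (27.9% of all, 14.7% higher and 13.2% lower). For the interaction 7 passed, 2 positive and 5 negative (25.8% of all, 14.4% positive and 11.4% negative). The arrays of the groups did not overlap for 15 of 18 probe sets in Jmjd1a-KO against WT, 14 in Jmjd1b-KO and 14 in double-KO, against 64.9%, 77.7% and 79% of all. The comparisons share arrays, so their counts are not independent of each other.

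Single arrays set several of these counts, and the share of all probe sets mostly fell with them. The 6 of Jmjd1a-KO against WT became 0 when WT replicate 1 was left out, 1 for WT replicate 2, and 3 for Jmjd1a-KO replicate 1 or for either Jmjd1b-KO array, where 2.05%, 1.57%, 9.81% and 8.1% of all passed in place of 18.4%. The 8 of Jmjd1b-KO against WT became 0 without any of the 4 arrays compared, where 1.35 to 5.65% of all passed in place of 24%. The 3 of double-KO against Jmjd1a-KO became 5 when Jmjd1a-KO replicate 1 or double-KO replicate 2 was left out (27.3% and 22.6% of all in place of 29.2%). The 15 of double-KO against Jmjd1b-KO became 8 without Jmjd1b-KO replicate 2 (30.1% of all in place of 51.2%). The 10 of Jmjd1a-KO against Jmjd1b-KO became 6 for Jmjd1a-KO replicate 2, 5 for Jmjd1b-KO replicate 1 and 4 for Jmjd1b-KO replicate 2 (31%, 10.2% and 8.08% of all in place of 27.9%). The 7 of the interaction became 2 when WT replicate 2 or Jmjd1b-KO replicate 1 was left out and 3 for Jmjd1b-KO replicate 2 (10.8%, 9.67% and 8.13% of all in place of 25.8%). The 10 of double-KO against WT stayed between 7 and 13.

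**Figure D3:**
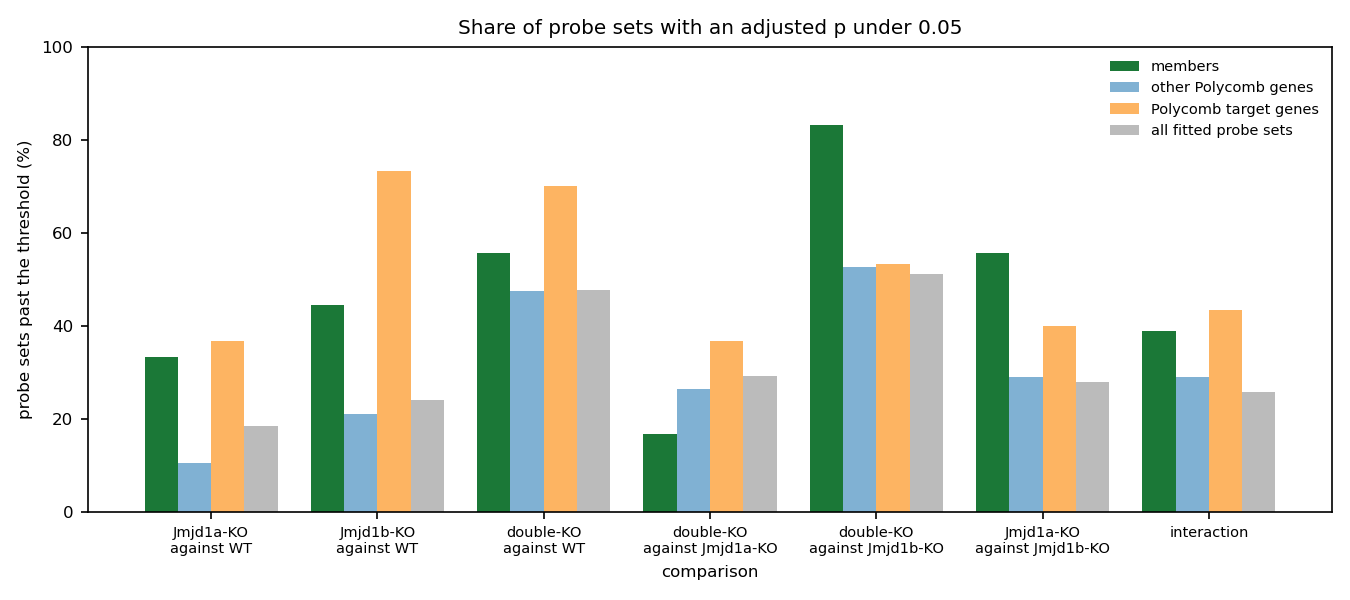
Bars give the percentage of probe sets with an adjusted p under 0.05 in each comparison, for the 18 member probe sets, the 38 of other Polycomb genes, the 30 of Polycomb target genes and all 10405 fitted probe sets. The members stood at 33.3, 44.4 and 55.6% in the 3 knockouts against WT, against 18.4, 24 and 47.6% of all.

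Other genes of the complexes and of their antagonists came from a list of 37, of which 36 were on the array and 23 varied, with 38 probe sets. Neither this list nor the target list below was followed through the alternative fits. In double-KO against WT 11 probe sets of 9 genes rose and 7 of 5 genes fell, with a median of 0.07 against 0.02 over all fitted probe sets. These 18 are 47.4% of the list, at the background of 47.6%. Scml2, a PRC1-associated protein, read 6.10 and 5.93 in WT, 6.02 and 6.15 in Jmjd1a-KO, 6.67 and 6.46 in Jmjd1b-KO, and 8.19 and 7.86 in double-KO. It rose by 2.01 ± 0.14 (adjusted p = 0.000357) from values below the lower quartile of the arrays, so the size of this rise is uncertain. Rbbp7, a histone-binding subunit of PRC2 that also serves other complexes, rose by 0.90 ± 0.08 (adjusted p = 0.00069), from 11.84 and 11.82 to 12.81 and 12.65.

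Among variant PRC1 genes, Pcgf5 rose by 1.09 ± 0.21 (adjusted p = 0.00815) on one probe set and by 0.43 on the other, and Bcor, a corepressor, by 0.63 ± 0.11 (adjusted p = 0.00535) on 1 of 2 probe sets (the other had 0.17 with no call), while Kdm2b, which recruits a variant PRC1 to CpG islands, fell by 0.52 ± 0.12 (adjusted p = 0.0152). Ezh1, the second methyltransferase of PRC2, rose by 0.61 ± 0.17 (adjusted p = 0.0312) on 1 of 2 probe sets, and the other had 0.17 with no call. Rbbp4, a close relative of Rbbp7, fell by 0.40 ± 0.10 (adjusted p = 0.0229) on 1 of 3 probe sets, with -0.18 and -0.08 on the others. The demethylases of lysine 27 moved apart: Kdm6b fell by 0.81 ± 0.19 (adjusted p = 0.0169) and Kdm6a rose by 0.35 ± 0.07 (adjusted p = 0.0114). Asxl2, a cofactor of the deubiquitinase that opposes PRC1, fell by 0.60 ± 0.12 (adjusted p = 0.0102) on 1 of 2 probe sets, and the other had -0.47 with no call. In Jmjd1a-KO against WT 1 probe set of the list rose and 3 fell, those of Aebp2 and Kdm2b (10.5% against 18.4% of all), with a median of -0.03 against 0.00 over all. In Jmjd1b-KO 3 rose and 5 fell (21.1% against 24% of all), with a median of 0.06 against 0.01. There Phc2, a PRC1 subunit, had -1.31 and -1.96 and Yaf2, the relative of Rybp, had -0.70 and -0.61, each past the threshold on both probe sets.

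Polycomb target genes came from a list of 58 developmental and cell cycle regulators, of which 53 were on the array and 21 varied, with 30 probe sets. Not all of them were silent in the WT cells, as the values below show. In double-KO against WT 8 probe sets of 7 genes rose and 13 of 7 genes fell, with a median of -0.20 against 0.02 over all, and 6 of the 13 belong to Ccnd2. These 21 are 70% of the list, against 47.6% of all, of which 27.8% were higher and 19.9% lower. Cdkn2a, the cell cycle inhibitor locus that is a classic Polycomb target, read 6.78 and 7.04 in WT, 7.55 and 7.63 in Jmjd1a-KO, 7.87 and 7.68 in Jmjd1b-KO, and 9.27 and 9.38 in double-KO. It rose by 2.41 ± 0.11 in double-KO (adjusted p = 0.000155), by 0.68 in Jmjd1a-KO and by 0.86 in Jmjd1b-KO, and the double-KO arrays lay above all others. Fgf5, a growth factor of the epiblast, was between 5.69 and 6.25 in the other 3 groups and 9.22 and 8.47 in double-KO, a rise of 2.67 ± 0.28 (adjusted p = 0.00104) from values below the lower quartile. The endoderm factor Sox17 rose by 1.07, from 5.93 and 5.90 in WT, also below the lower quartile, and the mesendoderm factor Eomes by 1.16. The homeobox gene Isl1 rose by 0.79, from 6.36 and 6.33 in WT, about at the lower quartile of 6.35.

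The falls included Neurod1, a neurogenic factor (-3.11 ± 0.35, adjusted p = 0.00136), Ccnd2, a cyclin (-2.95 ± 0.33, adjusted p = 0.00131), Hoxb1 (-1.34), Hoxb2 (-1.23) and Olig2 (-1.03). The other 5 probe sets of Ccnd2 had -2.43 to -0.75, so its size differs widely between probe sets. In WT Neurod1 read 8.96 and 9.09, Ccnd2 9.34 and 9.29, Hoxb2 8.01 and 8.01 and Olig2 7.85 and 7.89, above the median of 6.81 of those arrays. Hoxb1, with 6.81 and 7.19, was nearer to it. In double-KO Neurod1 read 5.94 and 5.89 and Hoxb1 5.70 and 5.61, below the lower quartile, and how far they fell is uncertain as well. Ccnd2, on its probe set with the largest fall, read 6.62 and 6.12 there, and the 6.12 was also below the lower quartile. In Jmjd1b-KO against WT 4 probe sets rose and 18 fell (73.3% of the list, against 12.7% of all higher and 11.3% lower), with a median of -0.69 against 0.01. With flat probe sets included 1.98% of all passed in this comparison, in place of 24%, and the target list was not followed in that fit. In Jmjd1a-KO 4 rose and 7 fell (36.7%, against 10.4% and 8.05% of all), with a median of -0.23 against 0.00. These 7 falls were of only 2 genes, Hoxa2 and Ccnd2, the latter on all of its probe sets. In Jmjd1b-KO the 18 were of 10 genes and again included all probe sets of Ccnd2. Meis1 (-1.42), Meis2 (-1.52 and -0.55) and Tbx3 (-1.22 and -0.92) were also among the falls, and Bmp4 rose by 1.52. Neuroectoderm markers, 6 of 7 varying, had a summed linear level of 4262 to 4525 in WT, 1947 to 4024 in Jmjd1a-KO, 1585 to 1645 in Jmjd1b-KO and 1549 to 1786 in double-KO. Endoderm markers, 5 of 9 varying and with Gata6 and Sox17 shared with the target list, had 573.4 to 640.6, 802.4 to 1001, 456.8 to 459.6 and 922.5 to 1262 in the same order. Trophoblast markers, 5 of 9 varying, had 1777 to 2057, 3886 to 4126, 4035 to 4289 and 11760 to 12310. In Jmjd1a-KO the higher sum lay in Tfap2c, whose brightest probe set of 3 read 8.16 and 8.36 in WT and 10.80 and 10.68 in Jmjd1a-KO, while Krt18 read 7.86 and 8.07 against 7.70 and 7.80, and Ascl2, on the probe set of 3 with the largest difference there, 6.34 and 6.59 against 5.76 and 5.83. What part such cells or states had in the target genes was not tested, nor was any link between the levels of Polycomb transcripts and those of the targets.

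**Figure D4:**
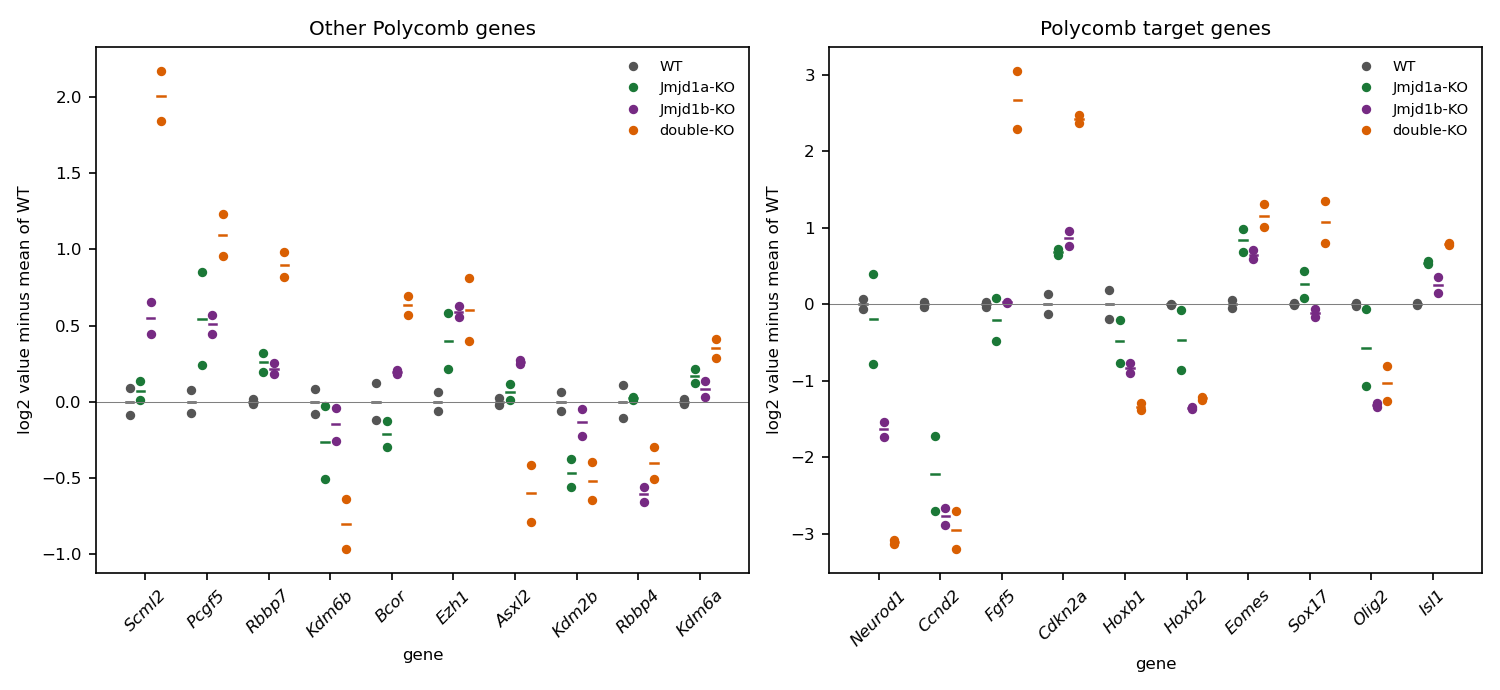
Points give the log2 value of each array minus the WT mean, with a bar at each group mean, for the 10 other Polycomb genes and the 10 target genes with the largest differences in double-KO against WT, coloured by genotype. Scml2, Fgf5 and Cdkn2a stood highest in double-KO, and Neurod1 fell furthest there.

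The transcripts most like the members with the widest ranges were found by the root-mean-square difference of centred log2 values over the 8 arrays, among all fitted probe sets of other genes. For Suz12 1452364_at these were Rmc1 (0.0908), Ypel2 (0.135) and Eml2 (0.147). For Jarid2 1450710_at they were Fam161a (0.0833), Trpv2 (0.086) and Calr3 (0.0901), which had means of 7.55, 7.78 and 7.43 in Jmjd1b-KO and between 6.53 and 7.22 in the other groups. This likeness describes 8 arrays and was searched among 10399 probe sets for Suz12 and 10402 for Jarid2.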

How the data were processed

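RNA from 8 embryonic stem cell samples was measured on Affymetrix arrays, and the table that the authors deposited is in log2 units, as judged from its values. Per the submitters' processing notes, the authors used R 2.7.2. How signals were background-corrected, normalized and summarized is not given here. Of 45101 probe sets, 33599 (74.5%) spanned less than 0.01 over the arrays, at high levels as well as low, and hold no difference. Of all probe sets 34958 had 1 gene symbol, 932 several and 9211 none.

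The 10405 probe sets with 1 symbol and a span of at least 0.01 were fitted with 4 group means in limma 3.58.1 (R 4.3.3; lmFit and eBayes, with 4 residual and 1.97 prior degrees of freedom). Adjustment by Benjamini-Hochberg ran over all 10405, at a threshold of 0.05. Flat probe sets would set the prior variance near 0, and fits with them are given as an alternative. A single error per probe set serves all groups, although replicates of some groups differed more. The number of arrays limits the precision. Named were all members and, from each of the lists of other Polycomb genes and targets, up to 10 genes with the largest difference in double-KO against WT past the threshold without overlap of arrays, others being picked after their values were seen. Members and lists were chosen with earlier results of these data known. The scripts were tested on simulated data. Alternatives covered the probe sets fitted, 1 probe set per gene, quantile normalization, centring, low values, a robust trend, a replicate block, a fit of just the groups compared, array weights, an adjusted p of 0.01 and each array left out. They were read for the members and for all probe sets fitted, not for the lists of other Polycomb genes and targets. Figures used matplotlib 3.10.9 in Python 3.11.15.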

Additional observations from a re-analysis of the deposited data

Results flagged for a closer look

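By the test of the interaction in limma, the difference that went with Jmjd1b loss depended on the Jmjd1a group for 7 of the 18 member probe sets. Of all fitted probe sets 25.8% passed. Genotype and cell line cannot be told apart in this test. The 5 of Jarid2 and Mtf2 did not pass without WT replicate 2 or without Jmjd1b-KO replicate 1, and with flat probe sets included 1 of the 7 passed, Rnf2 1451519_at. The interaction was -0.67 (adjusted p = 0.0202) for Jarid2 1450710_at. It was -0.98 (adjusted p = 0.0185) for Mtf2 1418514_at, -0.87 (adjusted p = 0.0147) for Mtf2 1418515_at, -0.86 (adjusted p = 0.0116) for Mtf2 1418516_at and -0.89 (adjusted p = 0.0162) for Mtf2 1449115_at. It was 0.79 (adjusted p = 0.00949) for Rnf2 1424873_at and 0.69 (adjusted p = 0.00879) for Rnf2 1451519_at.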

How the results depend on the processing

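Of 126 values (18 member probe sets in 7 comparisons) 59 passed the threshold, and no passing value turned its sign in any of the 19 alternatives in which it was fitted. Only quantile normalization, centring and leaving out an array could change a value itself. The last moved only comparisons with the group of that array. The other alternatives changed the error, the probe sets fitted or the threshold, so the sign was fixed there. The sign of 24 values that had not passed did turn, and each of these was at most 0.328 in size. Counts of passing member probe sets stayed within 1.5 times under quantile normalization, centring, the robust trend, array weights, a span of 0.1 and a replicate block. The counts for Jmjd1a-KO, Jmjd1b-KO and double-KO against WT, double-KO against Jmjd1a-KO, double-KO against Jmjd1b-KO, Jmjd1a-KO against Jmjd1b-KO and the interaction were 6, 8, 10, 3, 15, 10 and 7. With the replicate block they were 5, 7, 10, 3, 17, 9 and 7. Replicates with the same number had deviations that correlated between -0.173 and 0.237 over the 6 group pairs. These values cannot tell whether replicates with the same number shared a batch. With flat probe sets included the counts were 0, 0, 5, 2, 8, 3 and 1, and 1.85, 1.98, 9.41, 3.34, 10.7, 3.45 and 3.1% of all passed. With 1 probe set per gene, where at most 6 could pass, they were 0, 0, 3, 1, 4, 2 and 0 (2.06 to 14.4% of all). At an adjusted p of 0.01 they were 0, 1, 9, 2, 11, 5 and 2 (3.09 to 30.8% of all). With only the groups compared, Jmjd1a-KO against WT had 0 (3.79% of all) and Jmjd1b-KO against WT had 9 (45.1% of all). With array weights Jmjd1b-KO against WT had 11 (49.1% of all). Among probe sets at or above the median level, which drops some members, Jmjd1a-KO and double-KO against WT had 3 and 6 (18.6% and 46.7% of all). When each array was left out, with a lone replicate taken to vary like the other groups, the counts ranged from 0 to 8, 0 to 8, 7 to 13, 2 to 5, 8 to 17, 4 to 11 and 2 to 8 in the same order. Array medians over fitted probe sets moved by at most 0.0286 under quantile normalization and 0.0648 with centring. Signal over background was not examined.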
